A study of Homo sapiens with 8 samples.

Results

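The genes described here make asparagine and serine, pass serine on to glycine and cysteine, and carry amino acids into the cell. They are ASNS, PHGDH, PSAT1, PSPH, SHMT2, CTH, SLC7A11, SLC7A5, SLC3A2 and SLC1A5. Members were found by symbol in the platform annotation, taking every probe set assigned to 1 gene only, and all 10 genes were measured, by 36 of the 44988 single-gene probe sets. They were compared among 18132 genes in AGS, an established human gastric adenocarcinoma line, on 8 Affymetrix arrays. The 4 control arrays carried RNA of cells without the drug, and the 4 podofilox arrays carried RNA of cells given podofilox at 3.4 nM for 72 hours. All cells grew in medium with fetal bovine serum, penicillin and streptomycin. Podofilox, or podophyllotoxin, binds tubulin and blocks microtubule assembly. The labels do not say whether control cells received the solvent, or whether replicate arrays came from independent cultures, so p-values measure only the spread between these arrays.

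Asparagine synthetase transfers the amide group of glutamine to aspartate. Serine is built from the glycolytic intermediate 3-phosphoglycerate by PHGDH, PSAT1 and PSPH in turn, and SHMT2 splits it in mitochondria into glycine and a one-carbon unit. CTH completes the transsulfuration route to cysteine. SLC7A11 and SLC7A5 are light chains that each pair with the heavy chain SLC3A2, giving the cystine-glutamate exchanger xCT and the carrier LAT1 for large neutral amino acids, and SLC1A5 carries glutamine and other neutral amino acids. Many of these genes are known targets of the transcription factor ATF4, which accumulates when amino acids run short or proteins misfold, and SLC7A11 is also a target of NRF2, the regulator of antioxidant genes.

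ATF4 and its C/EBP partners are known to bind a composite element, and the nutrient-sensing unit of the ASNS promoter is its classic example. The letters TGATGNAA, the core of that element, were searched on both strands in RefSeq's promoter windows (GRCh38.p14, 250 bases before to 50 after each annotated start). Of all 35116 windows, 3.62% held a match. RefSeq windows were at hand for 7 of the 10 genes, 12 windows in all, and 3 windows held 1 match each, in ASNS, SLC1A5 and SLC3A2. No window was at hand for PSPH, for SLC7A11, which rose, or for SHMT2, which fell, so these were not searched. The stretches around these matches are shown because ASNS rose the most of the 10 genes, and the other 2 genes did not pass the test on their brightest probe set. Capitals mark the matched letters, and sequences run 5′ to 3′ on the strand of the gene.
ASNS, chr7:97872409-97872558, minus strand, the 150 bases before the first listed start: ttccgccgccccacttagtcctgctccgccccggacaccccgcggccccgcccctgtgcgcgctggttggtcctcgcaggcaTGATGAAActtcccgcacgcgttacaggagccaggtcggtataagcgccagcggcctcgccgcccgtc
SLC1A5, chr19:46784815-46784964, minus strand, the 150 bases before the third listed start: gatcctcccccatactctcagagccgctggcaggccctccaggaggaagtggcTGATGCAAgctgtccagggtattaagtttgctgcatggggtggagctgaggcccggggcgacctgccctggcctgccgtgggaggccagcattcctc
SLC3A2, chr11:62881728-62881748, plus strand, just after the first listed start, with the motif as its reverse complement: aggactccTTACATCAgctcc
The ASNS match lay at positions -68 to -61 from the start, the SLC1A5 match at -97 to -90, and the SLC3A2 match at 38 to 45 inside the transcribed part. The SLC1A5 match, although before the third start, lay downstream of the other 2 listed starts of that gene. The SLC3A2 match lay downstream of all 3 listed starts of that gene, the first listed being the most downstream of them. A match is a string of letters, not a bound site. The second ASNS start, the other 2 starts of SLC1A5 and of SLC3A2, and the windows of PHGDH, PSAT1, CTH and SLC7A5 held no match.

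With podofilox, ASNS mRNA was 1.43-fold higher and SLC7A11 mRNA 1.31-fold higher, and SHMT2 mRNA was 1.14-fold lower. PHGDH, PSAT1, PSPH, CTH, SLC7A5, SLC3A2 and SLC1A5 did not pass the test when each gene was read from its brightest probe set. The words rose and fell are kept for limma's adjusted p (two-sided, Benjamini-Hochberg) below 0.05. Thus 2 of 10 genes rose, against 8.55% of all genes tested, and 1 of 10 fell, against 12.5% of all genes. The median difference of the 10 genes was 0.14 on the log2 scale, beside 0.0069 over all genes, with 7 of 10 above 0. Over probe sets, 8 of 36 rose, against 7.83% of all single-gene probe sets, and 2 of 36 fell, against 10.2%. Probe sets of a gene read the same mRNA and are not independent. All values are the deposited log2 values, each a level relative to the other RNA on an array, so a change in the number of cells of a kind and a change in RNA per cell cannot be told apart. A difference is podofilox minus control.

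**Figure D1:**
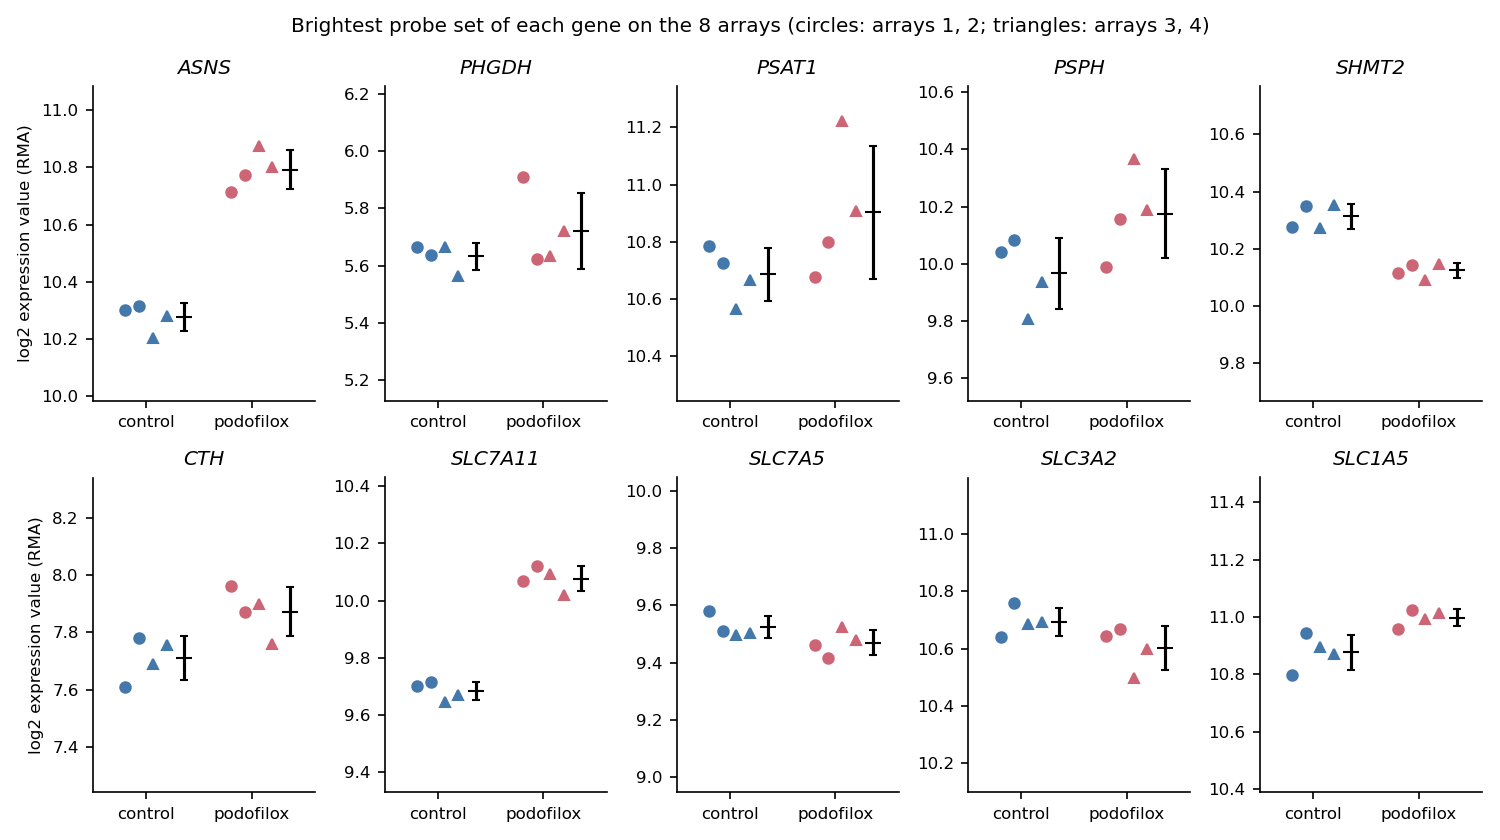
Log2 expression value (vertical axis, a span of the same height in each panel) of the brightest probe set of the 10 genes on control (blue) and podofilox (red) arrays, with circles for arrays 1 and 2, triangles for arrays 3 and 4, and a black bar for the mean and SD of 4 arrays. ASNS, SLC7A11 and SLC1A5 show no overlap upward (differences 0.52, 0.39 and 0.12), and SHMT2 none downward (-0.19). PSAT1 spreads widely with podofilox (SD 0.23, control 0.09), and PSPH spreads in both groups (SD 0.15, control 0.12). Over all genes, 10.6% show no overlap upward and 15.6% none downward.

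ASNS, the enzyme of asparagine synthesis, stood at 10.30, 10.32, 10.21 and 10.28 on control arrays 1 to 4 and at 10.72, 10.77, 10.88 and 10.80 on podofilox arrays 1 to 4. Every podofilox array lay above every control array, by a gap larger than the spread within either group. The difference was 0.52 (SE 0.05, 95% interval 0.41 to 0.62, adjusted p = 0.000117). Arrays 1 and 2 alone gave 0.44, and arrays 3 and 4 alone 0.60. All 4 ASNS probe sets rose, by 0.49 to 0.52, so the rise did not hang on the choice of probe set. It stayed past the test under all 21 alternatives run for the gene, from 0.44 to 0.60 with an adjusted p of at most 0.0293. The genes outside the 10 whose values over the 8 arrays ran closest to ASNS, by root mean square distance after subtracting each gene's control mean, were BCL10 (distance 0.03, difference 0.48), ZNF267 (distance 0.03, difference 0.51) and TMEM167B (distance 0.04, difference 0.47). The TMEM167B difference was 0.05 (adjusted p = 0.677) without probe sets named _x_at or _s_at, which can match several transcripts or sequences.

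Of the 3 enzymes of serine synthesis, 0 passed limma's test on the brightest probe set, with differences of 0.09 (PHGDH), 0.22 (PSAT1) and 0.21 (PSPH) and an unadjusted p under 0.05 for PSPH alone. PHGDH, the first enzyme, gave a dim signal on its single probe set, at 5.67, 5.64, 5.66 and 5.57 on control arrays and 5.91, 5.62, 5.63 and 5.72 with podofilox. Podofilox arrays 1 and 4 stood above the controls and arrays 2 and 3 among them, and the difference was 0.09 (SE 0.07, 95% interval -0.06 to 0.23, adjusted p = 0.386). A further probe set, shared between PHGDH and MZT2B, gave 12.02 ± 0.02 for control and 11.94 ± 0.03 for podofilox (SD, n = 4 each) and cannot be assigned to either gene.

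PSAT1, the aminotransferase of the second step, stood at 10.79, 10.73, 10.57 and 10.67 on control arrays and 10.68, 10.80, 11.22 and 10.91 with podofilox. The groups overlapped, and podofilox array 3 stood highest. The difference was 0.22 (SE 0.10, 95% interval -0.01 to 0.45, adjusted p = 0.177), -0.02 from arrays 1 and 2 alone and 0.45 from arrays 3 and 4. Without podofilox replicate 3 it was 0.11 (adjusted p = 0.323). All 8 PSAT1 probe sets had a positive difference, from 0.05 to 0.24, but 0 passed limma's test over all probe sets, 3 of them having an unadjusted p under 0.05.

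The 8 PSAT1 probe sets did not follow 1 pattern over the arrays. On the probe set 11747348_a_at, control arrays lay at 10.46, 10.41, 10.43 and 10.42 and podofilox arrays at 10.61, 10.59, 10.46 and 10.54. There every podofilox array lay above every control array, as on 10.5% of all probe sets, and limma's adjusted p was 0.115. Podofilox array 3 was the lowest of its group, the reverse of the brightest probe set. 11741479_a_at ran like 11747348_a_at, with podofilox arrays at 10.59, 10.57, 10.46 and 10.55 (adjusted p = 0.128). On 11742992_s_at the podofilox arrays lay at 10.07, 10.17, 10.72 and 10.31, again highest on array 3. With the mean of the 8 probe sets the PSAT1 difference was 0.14 (adjusted p = 0.0549).

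PSPH, the phosphatase of the last step, stood at 10.04, 10.08, 9.81 and 9.94 on control arrays and 9.99, 10.16, 10.37 and 10.19 with podofilox. As with PSAT1, control array 3 was the lowest and podofilox array 3 the highest, and the groups overlapped. The difference was 0.21 (SE 0.08, 95% interval 0.02 to 0.40, adjusted p = 0.114), 0.01 from arrays 1 and 2 alone and 0.41 from arrays 3 and 4. It passed the test without podofilox replicate 1 (0.27, adjusted p = 0.0415) and when its probe sets were averaged (0.20, adjusted p = 0.0326). Under 16 of 20 alternatives it still did not pass. Of its 3 probe sets, the dimmest, 11763252_x_at, rose (0.21, adjusted p = 0.0406), and 11730796_x_at did not pass (0.17, adjusted p = 0.0535). On both, every podofilox array lay above every control array, as on 10.5% of all probe sets. The call of 11763252_x_at ended on leaving out any 1 of the 4 control arrays or podofilox replicate 2 or 4, with an adjusted p of at most 0.0947.

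**Figure D2:**
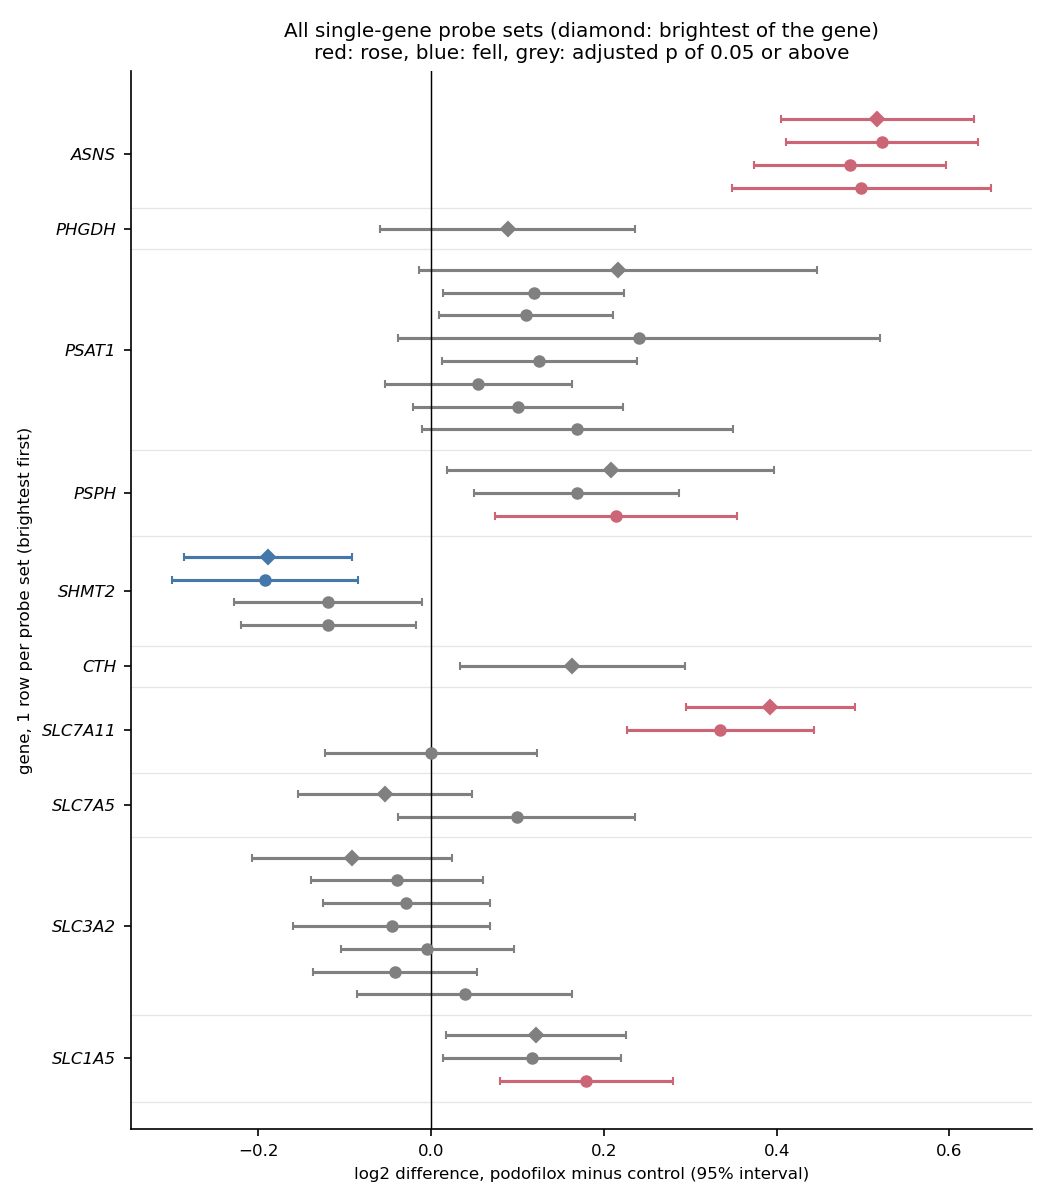
Log2 difference, podofilox minus control, with limma's 95% interval (horizontal axis) for the 36 single-gene probe sets, grouped by gene on the vertical axis with the brightest first as a diamond; red rose, blue fell, grey did not pass. The 4 ASNS probe sets lie together at 0.49 to 0.52, whereas the 3 of SLC7A11 split into a rising pair and 1 near no difference.

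SHMT2, the mitochondrial enzyme that turns serine into glycine, stood at 10.28, 10.35, 10.27 and 10.35 on control arrays and 10.12, 10.15, 10.09 and 10.15 with podofilox. The lowest control array (10.27) stood above the highest podofilox array (10.15). The difference was -0.19 (SE 0.04, 95% interval -0.28 to -0.10, adjusted p = 0.00918), -0.18 from arrays 1 and 2 alone and -0.19 from arrays 3 and 4. With 2 arrays a group it no longer passed in either (adjusted p = 0.14 and 0.0976). The lowest control array stood above the highest podofilox array in 15.6% of all genes, and in 13.8% of all probe sets. All 4 SHMT2 probe sets had this separation, with differences from -0.19 to -0.12, and 2 of them fell over all probe sets. That count was 0 without control replicate 4, and 1 without control replicate 3 or podofilox replicate 4.

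CTH, the enzyme that releases cysteine from cystathionine, stood at 7.61, 7.78, 7.69 and 7.75 on control arrays and 7.96, 7.87, 7.90 and 7.76 with podofilox. The podofilox arrays were mostly higher, but array 4 lay within the control range. The difference was 0.16 (SE 0.06, 95% interval 0.04 to 0.29, adjusted p = 0.0691) on the only probe set. It passed without podofilox replicate 4 (0.20, adjusted p = 0.04), but not under 17 of 21 alternatives.

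The transporters split. SLC7A11, the light chain of the cystine carrier, stood at 9.70, 9.71, 9.65 and 9.67 on control arrays and 10.07, 10.12, 10.09 and 10.02 with podofilox. The groups were far apart, and the difference was 0.39 (SE 0.04, 95% interval 0.30 to 0.48, adjusted p = 0.000197), 0.39 from arrays 1 and 2 alone and 0.40 from arrays 3 and 4. A dimmer probe set, 11721875_at, rose by 0.33, from 8.78, 8.79, 8.70 and 8.64 to 9.09, 9.06, 9.05 and 9.05. The dimmest, 11744680_a_at, gave 7.80 ± 0.06 for control and 7.80 ± 0.08 for podofilox (SD, n = 4 each), with a 95% interval of -0.12 to 0.12 for the difference. The mean of the 3 probe sets still rose, by 0.24 (adjusted p = 0.00128), and the gene stayed past the test under all 21 alternatives run for it.

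SLC3A2, the heavy chain that SLC7A11 and SLC7A5 share, stood at 10.64, 10.76, 10.68 and 10.69 on control arrays and 10.64, 10.67, 10.50 and 10.60 with podofilox. The groups overlapped, and the difference was -0.09 (SE 0.05, 95% interval -0.20 to 0.02, adjusted p = 0.233). Its 7 probe sets lay between -0.09 and 0.04, with 0 past limma's test and 0 with an unadjusted p under 0.05. SLC7A5, the light chain of LAT1, stood at 9.58, 9.51, 9.50 and 9.50 on control arrays and 9.46, 9.42, 9.52 and 9.48 with podofilox. The groups overlapped. The difference was -0.05 (SE 0.04, 95% interval -0.15 to 0.04, adjusted p = 0.425), and its other probe set was at 0.10.

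SLC1A5, the carrier of glutamine, stood at 10.80, 10.94, 10.89 and 10.87 on control arrays and 10.96, 11.02, 10.99 and 11.02 with podofilox. The podofilox arrays all lay above the control arrays, narrowly, with a difference of 0.12 (SE 0.04, 95% interval 0.02 to 0.22, adjusted p = 0.0823). Such a separation upward was seen in 10.6% of all genes. The gene passed when its probe sets were averaged (0.14, adjusted p = 0.0249) and with an intensity trend and robust estimation (adjusted p = 0.017). Under 17 of 21 alternatives it still did not pass. Of its 3 probe sets, 11740714_a_at rose (0.18, adjusted p = 0.0203), a call that ended without control replicate 3 or 4 or podofilox replicate 2 or 4, with an adjusted p of at most 0.0635.

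The differences between members within an array are given for 4 pairs, as a description with no test, since the pairs were chosen after their values were seen. Within each array, SLC7A11 minus its partner SLC3A2 went from -1.01 ± 0.05 to -0.52 ± 0.08 (SD, n = 4 each), a shift of 0.48 (SE 0.05). SLC7A11 minus SLC7A5 shifted by 0.45 (SE 0.04), ASNS minus PSAT1 by 0.30 (SE 0.09), and PSPH minus SHMT2 by 0.40 (SE 0.10). With the mean of each gene's probe sets the shifts of SLC7A11 against SLC3A2 and SLC7A5 were smaller, at 0.27 and 0.22.

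**Figure D3:**
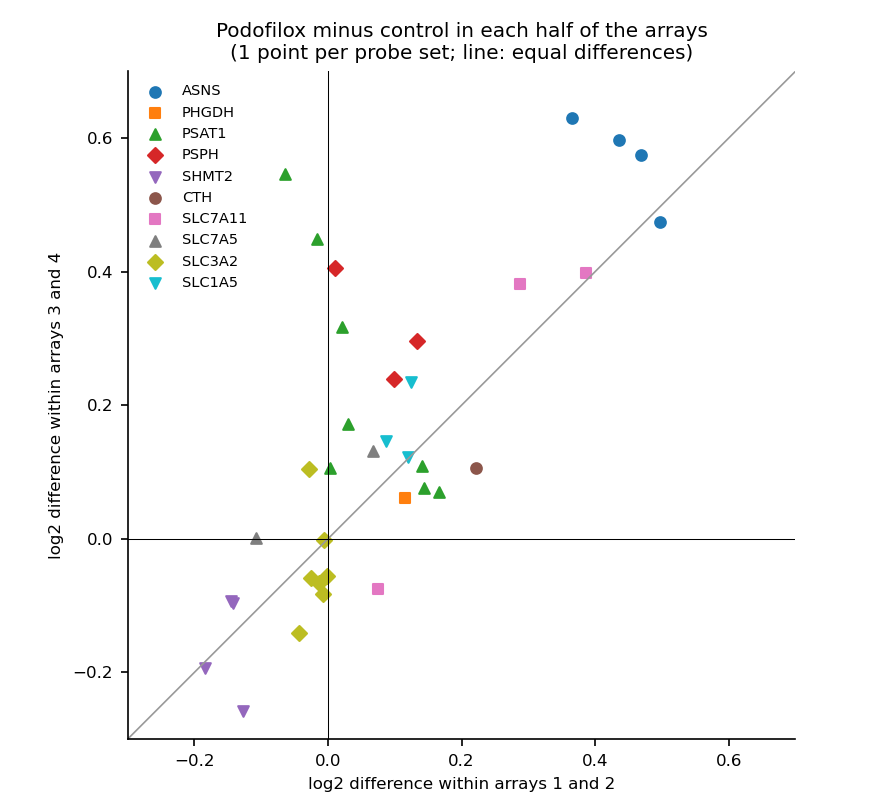
Log2 difference, podofilox minus control, within arrays 1 and 2 (horizontal axis) and within arrays 3 and 4 (vertical axis), 1 point per probe set, coloured by gene; the line marks equal differences. PSPH and several PSAT1 probe sets lie far above the line (brightest PSAT1 -0.02 and 0.45, brightest PSPH 0.01 and 0.41), whereas the brightest SLC7A11 (0.39 and 0.40) and SHMT2 (-0.18 and -0.19) lie near it.

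Arrays 1 and 2 are shown apart from 3 and 4 because within a group the arrays numbered 1 and 2, and likewise 3 and 4, resembled each other more than they did the rest. Deviations from the group mean over all genes, which are not independent replicates, correlated at -0.22 between control arrays 1 and 2 and at 0.09 between control arrays 3 and 4. The other control pairs lay between -0.62 and -0.31. For podofilox arrays the values were -0.01 and -0.11, and between -0.63 and -0.35 for the other pairs. Deviations from a mean of 4 arrays correlate negatively on average by construction. Control arrays 1 and 2 (-0.22) stood only a little above control arrays 1 and 4 (-0.31). The split rests on these same data. The labels name no batch, and whether PSAT1 and PSPH differ between these sets of arrays was not tested.

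Genes around serine and the one-carbon cycle went both ways. Of 15 measured genes beside the 10 above, 2 rose (13.3%, against 8.55% of all genes) and 3 fell (20%, against 12.5%), with a median of 0.024 beside 0.0069 over all genes. MTHFD2, which with SHMT2 runs the mitochondrial folate pathway, rose by 0.33 (SE 0.05, adjusted p = 0.00151), and MTHFD1L, which releases formate in mitochondria, by 0.24 (SE 0.06, adjusted p = 0.0171). MTHFD1, the cytosolic counterpart, fell by 0.40 (SE 0.05, adjusted p = 0.000735), and GLDC, which cleaves glycine, by 0.47 from a dim 5.36. SHMT1, the cytosolic relative of SHMT2, differed by -0.09 and did not pass. The calls of MTHFD1L (0.13, adjusted p = 0.0875) and GLDC (-0.26, adjusted p = 0.0584) ended without _x_at and _s_at probe sets. That of MTHFD1L also ended with replicate 3 of both groups left out (0.16, adjusted p = 0.0621).

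Of 14 measured genes of aspartate, glutamate, glutamine and proline, 1 rose (7.14%, against 8.55% of all genes) and 2 fell (14.3%, against 12.5%), with a median of -0.024 beside 0.0069 over all genes. GLUD1, glutamate dehydrogenase, rose by 0.40 (SE 0.07, adjusted p = 0.00224). ASL, which splits argininosuccinate, fell by 0.27 (SE 0.04), and GOT2, the mitochondrial enzyme that makes aspartate, by 0.16 (SE 0.04, adjusted p = 0.0164). GOT2 lost its call without control replicate 4 (-0.16, adjusted p = 0.0551) and with _x_at and _s_at probe sets dropped (-0.15, adjusted p = 0.0594). Glutamine synthetase, GLUL, differed by -0.17 and passed without podofilox replicate 1 (-0.21, adjusted p = 0.0311), but not under 16 of 21 alternatives. ASRGL1, an asparaginase, differed by -0.13 and passed without control replicate 3 (-0.16, adjusted p = 0.0477), but not under 18 of 20 alternatives. The list's counts became 2 rising without control replicate 2 and 1 falling without control replicate 4.

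Of 15 genes of methionine, cysteine and glutathione, 4 rose (26.7%, against 8.55% of all genes) and 3 fell (20%, against 12.5%), with a median of 0.044 beside 0.0069 over all genes. MAT2A, which makes S-adenosylmethionine, fell by 0.56 (SE 0.04, adjusted p = 3.36e-05). GSS, which completes glutathione, fell by 0.35 (SE 0.04), and CHAC2, which degrades it, by 0.30 (SE 0.06). CHAC1, the other enzyme of that kind and a known ATF4 target, rose by 0.35 (SE 0.08, adjusted p = 0.0161) and is named after its value was seen. GCLM and GCLC, the subunits of the ligase that starts glutathione synthesis, rose by 0.26 (SE 0.05, adjusted p = 0.00711) and 0.22 (SE 0.05, adjusted p = 0.0112). Averaged over its probe sets, GCLC no longer passed (0.09, adjusted p = 0.394).

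**Figure D4:**
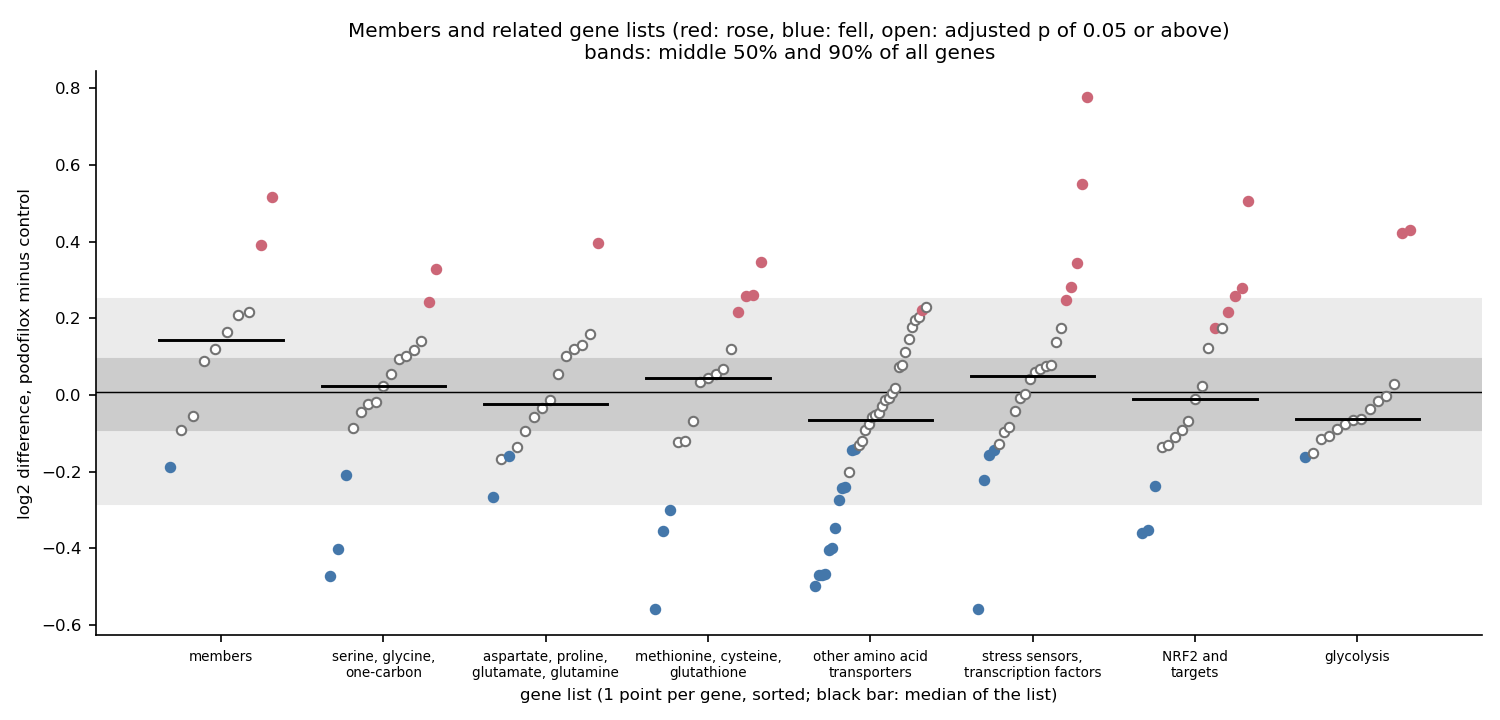
Log2 difference, podofilox minus control (vertical axis), 1 point per gene, for the 10 genes described here and 7 related gene lists (horizontal axis), with the median of each list as a black bar and the middle 50% and 90% of all genes as bands. Among other amino acid transporters 12 of 34 genes fell (blue) and 1 rose (red), whereas ASNS (0.52) and SLC7A11 (0.39) lie above the band of all genes.

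Other amino acid transporters were mostly lower or did not pass. Of 34 measured, 12 fell (35.3%, against 12.5% of all genes) and 1 rose (2.94%, against 8.55%), with a median of -0.066 beside 0.0069 over all genes. SLC38A10 and SLC25A13, the latter a mitochondrial aspartate-glutamate carrier, fell by 0.47 each (SE 0.05 each). SLC38A6 fell by 0.40 (SE 0.05) and SLC7A8, a light chain known as LAT2 that also pairs with SLC3A2, by 0.40 (SE 0.05). SLC38A2, a sodium-coupled carrier of small neutral amino acids, was the gene that rose, by 0.22 (SE 0.04, adjusted p = 0.00426). The arginine carrier SLC7A1 differed by -0.12 and did not pass. The count of rising genes became 2 without control replicate 1, control replicate 3 or podofilox replicate 2.

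Among 22 stress sensors and transcription factors of the amino acid response, 5 rose (22.7%, against 8.55% of all genes) and 4 fell (18.2%, against 12.5%), with a median of 0.051 beside 0.0069 over all genes. The stress factors DDIT3 and ATF3 rose, by 0.78 (SE 0.04, adjusted p = 7.44e-06) and 0.55 (SE 0.06, adjusted p = 0.000175). DDIT3 stood at 6.49 for control and 7.27 with podofilox, its mean over all arrays being below the median gene level. All of its single-gene probe sets were _x_at or _s_at, and its call held under the 19 alternatives that could be run. PPP1R15B, a phosphatase subunit that reverses the stress mark on the initiation factor eIF2, rose by 0.34 (SE 0.05). ATF5 fell by 0.56 (SE 0.10, adjusted p = 0.00358). ATF4 itself went from 12.65 ± 0.02 to 12.73 ± 0.03 (SD, n = 4 each), 0.08 apart and short of the threshold (adjusted p = 0.213, and adjusted p = 0.0363 with an intensity trend and robust estimation). ATF4 did not pass under 19 of 20 alternatives. Its target TRIB3 differed by 0.07 and did not pass. ATF4 is known to be controlled largely at translation, which arrays do not read. The count of falling genes was 2 without control replicate 1 or podofilox replicate 1 or 4, and 1 without control replicate 3 or 4.

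Of 17 measured genes of NRF2 and its targets, 5 rose (29.4%, against 8.55% of all genes) and 3 fell (17.6%, against 12.5%), with a median of -0.0092 beside 0.0069 over all genes. GCLM and GCLC, counted above, are in this list too. The pentose phosphate enzyme TKT rose by 0.28 (SE 0.04) and the reductase AKR1C1 by 0.51 (SE 0.08, adjusted p = 0.0019). KEAP1, which marks NRF2 for degradation, fell by 0.36 (SE 0.05, adjusted p = 0.00138), and AKR1B10 by 0.35 (SE 0.06). NFE2L2, the gene of NRF2, differed by -0.11 (adjusted p = 0.147) and passed when its probe sets were averaged (-0.14, adjusted p = 0.0406). It did not pass under 17 of 21 alternatives. Of 14 glycolysis genes, 2 rose (14.3%, against 8.55% of all genes) and 1 fell (7.14%, against 12.5%). Their median difference was -0.063, beside 0.0069 over all genes. The list holds genes before and after 3-phosphoglycerate, from which serine is built, with PGAM1, ENO1, PKM and LDHA acting after it. The hexokinases HK1 and HK2 rose by 0.42 (SE 0.04) and 0.43 (SE 0.04), and TPI1 fell by 0.16 (SE 0.04). PFKM differed by -0.15 and did not pass, nor did it under 17 of 21 alternatives, but it did when probe sets were averaged (adjusted p = 0.0457).

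The label of the line was set against marker genes. Of 8 epithelial markers 7 lay above the median gene level of 6.99, up to 13.32 for KRT19, while CLDN3 was dim at 4.90. Of 7 measured gastric markers 4 did, and GKN1 was dim at 3.99. Of the other cell types, 1 of 8 fibroblast, 2 of 7 immune and 0 of 6 endothelial markers lay above that level, the immune pair being LYZ (13.61), which gastric epithelium also makes, and CD68. PTPRC, the pan-leukocyte marker, was at 3.56 and LUM at 3.21. Mean epithelial marker level ran from 11.09 to 11.11 on control arrays and from 11.19 to 11.25 with podofilox, and 2 of 8 rose (CLDN4 by 0.50, CLDN7 by 0.37). Mean gastric marker level ran from 7.15 to 7.23 and from 7.39 to 7.44. TFF1 rose by 1.08 and ANXA10 by 0.49. The other gastric markers did not pass, TFF2 (0.25) and GATA6 (0.16) being higher and SOX2 (-0.16), GATA4 (-0.13) and GKN1 (-0.12) lower. Mean immune marker level ran from 6.48 to 6.54 and from 6.59 to 6.64, and 1 of 7 rose (CD68 by 0.28). The part of these shifts in the results above was not tested. Fibroblast and endothelial means overlapped between the groups, from 5.08 to 5.25 against 5.09 to 5.23 and from 5.50 to 5.81 against 5.53 to 5.65. In each list 1 gene fell, PDGFRA by 0.27 and CDH5 by 0.44. Beside these counts of markers that rose or fell, 8.55% of all genes rose and 12.5% fell. Across genes, Pearson's r was 0.997 to 0.999 within a group and 0.995 to 0.997 between the groups.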

How the data were processed

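Values are the deposited log2 levels of each probe set on each array, obtained by the authors with RMA, a method that corrects background, equalizes the arrays' distributions and summarizes probes, per the submitters' processing notes. Which RMA software was used is not stated in the labels. Values ran on the log2 scale (2.64 to 15.02, array medians 6.39 to 6.45). The table has no detection calls. Of 49395 probe sets, 102 controls, 1832 of several genes and 2473 unnamed here were left out. GEO's platform annotation named the genes, and 44961 single-gene probe sets matched RefSeq (GRCh38.p14) by Entrez identifier.

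Each gene was read from its probe set with the highest mean, with no intensity filter, and tested between groups by limma 3.58.1 under R 4.3.3 (lmFit then eBayes, with no covariate). All single-gene probe sets were fitted separately. The script was tested on simulated data. Figures used matplotlib 3.10.9. The number of arrays limits the precision.

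Members and lists were chosen with earlier results of these data known. The text names all 10 members, the 4 genes of each list with the smallest p, and a few fixed regulators and transporters; marker genes were named after their values were seen. Some listed genes are not reported here. Alternatives were another normalization, a filter, other variance models, array weights, blocks, other probe set rules, arrays 1 and 2 or 3 and 4 alone, and single arrays left out; within-array differences of member pairs and leaving out replicate 3 of both groups were chosen after seeing the data.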

Additional observations from a re-analysis of the deposited data

Results flagged for a closer look

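A single array stood apart from the other 3 of its group in 9 of 72 groups of 4 (36 probe sets, 2 groups each), where the gap exceeded Dixon's 95% critical value, which chance exceeds in about 1 in 20 groups. Probe sets of a gene share their mRNA, so these groups are not independent. On podofilox array 3, the ASNS probe set 11716365_x_at was at 10.89 (the others 10.75 to 10.76) and the PSPH probe set 11763252_x_at at 6.63 (6.36 to 6.39), both the highest. On podofilox array 1, the PSAT1 probe set 11742991_a_at was at 9.82 (9.91 to 9.93) and the SLC1A5 probe set 11716865_a_at at 10.72 (10.79), both the lowest. Among control arrays, the PSAT1 probe sets 11747349_s_at and 11751230_a_at stood at 10.03 on array 2 (9.90 to 9.92) and 8.83 on array 3 (8.92). The SHMT2 probe sets 11747537_x_at and 11750992_x_at stood at 9.99 on array 1 (10.07) and 9.93 on array 2 (9.78 to 9.81). The SLC7A5 probe set 11739061_at stood at 9.58 on array 1 (9.50 to 9.51).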

How the results depend on the processing

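Among the 10 genes, their probe sets and the 39 other genes for which alternatives were run, no called difference changed sign. ASNS and SLC7A11 rose under each of 21 alternatives. Some calls near the threshold depended on the variance model. The filter on the median level kept 9 of the 10 genes and 34 of their probe sets. There 4 genes rose, 14 probe sets rose and 4 fell, CTH (0.16) and SLC1A5 (0.12) being added. Under this filter larger shares of all genes and of all probe sets also rose and fell than in the main fit. The added calls were therefore not particular to the 10 genes. An intensity trend with robust estimation gave 4 genes, 14 rising probe sets, and CTH (0.16) and SLC1A5 (0.12). Array weights gave 4 genes and 15 probe sets, with PSPH (0.21) and SLC1A5 (0.14), and 2406 rising genes and 5534 rising probe sets over all. The mean of a gene's probe sets gave 4 genes, with PSPH (0.20) and SLC1A5 (0.14), and a further quantile normalization added CTH (0.19).

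Arrays 1 and 2, or 3 and 4, alone leave 2 arrays a group and call fewer features. Within arrays 1 and 2, 0 of the 10 genes fell (limma, SHMT2 at -0.18), and 4 of their probe sets rose and 0 fell. Over all features 468 genes rose and 542 fell, as did 1352 and 1353 probe sets. Within arrays 3 and 4, 0 of the 10 genes and 0 of their probe sets fell (SHMT2 -0.19, while PSPH rose by 0.41), with 905 and 1395 genes and 2032 and 2610 probe sets. In the lists within arrays 1 and 2, the rising genes were 0 (serine), 0 (aspartate), 1 (methionine), 0 (transporters), 2 (stress) and 0 (NRF2), and the falling ones 0 (aspartate), 6 (transporters), 1 (stress), 0 (NRF2) and 0 (glycolysis). Within arrays 3 and 4, 1 methionine gene and 3 NRF2 genes rose, and 2 stress genes and 0 glycolysis genes fell.

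No pairing by replicate number showed in the values. Same-numbered arrays correlated in their deviations from the group means at -0.24 to 0.09. Of 4 control arrays, 1 correlated best with its own number. The labels name no pairing, and these few correlations cannot decide whether there was one. With the replicate number as a block, the counts of rising and falling genes among the 10 stayed at 2 and 1 (ASNS 0.52, adjusted p = 0.00346; SLC7A11 0.39, adjusted p = 0.00398; SHMT2 -0.19, adjusted p = 0.0342). Of the probe sets 6 rose and 1 fell, as with replicate 3 of both groups left out (1 fell), an alternative chosen after seeing the data. Under the block, 1 serine gene rose, and 1 aspartate, 1 stress and 0 glycolysis genes fell. With replicate 3 left out, 1 serine gene rose. A term for arrays 1 and 2 against 3 and 4 gave 3 rising transporters.

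Among the lists, 2 aspartate genes rose with quantile normalization, 2 above the median level, 2 with the mean of probe sets and 4 with array weights, where 4 fell. Falling methionine genes numbered 5 above the median level and 5 with a trend, falling NRF2 genes 6 with a trend and 6 with array weights, and falling stress genes 2 with the mean of probe sets. Falling glycolysis genes numbered 4 above the median level, 5 with a trend, 2 with array weights and 2 with the mean of probe sets. Rising transporters numbered 2 with array weights, with the mean of probe sets and without _x_at and _s_at probe sets, where 1 serine and 3 stress genes rose.

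Leaving out single arrays gave 2 to 3 rising and 1 falling of the 10 genes, and 6 to 9 rising and 0 to 2 falling probe sets. Over all features it gave 1059 to 1573 rising and 1647 to 2145 falling genes. Probe sets over all numbered 2418 to 3451 rising and 3232 to 4296 falling. PSPH then ran from 0.14 to 0.27 and CTH from 0.13 to 0.20. Rising aspartate genes numbered 1 to 2 and falling ones 1 to 3, rising transporters 1 to 2 and falling stress genes 1 to 3. The cause of these moves was not tested, beyond the smaller number of arrays or genes. The table has no detection calls, so PHGDH, 11763252_x_at and other dim probe sets have no measured distance from background.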
